A study of Mus musculus with 6 samples.

Results

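The kinesin family of the adult mouse neocortex is described here from 30 genes out of the 13299 in the expression table. They were chosen by name alone: 26 genes named Kif or Kifc with a number, the light chain genes *Klc1*, *Klc2* and *Klc4*, and *Kifap3*. The rule of names used no expression value, but it was set with earlier results of these data known. One of the 26, *Kif1bp*, encodes a kinesin-binding protein and no motor. It is placed in no subfamily below, but the counts and medians over members include it. Other kinesin genes, among them *Klc3* and the mitotic motors, are not analysed here, since a gene entered the table only if the mean of a genotype reached 0.5 FPKM.

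The study sequenced RNA from the cortices of 3 adult male HuD KO mice (*Elavl4*-/-, exon 2 of *Elavl4* replaced by PGK-Neo) and 3 wildtype littermates, the controls, all about 3 to 4 months old and of the C57BL/6 strain. HuD, the product of *Elavl4*, is a neuronal RNA-binding protein that binds AU-rich elements in its target mRNAs, and the deletion is constitutive, present in every cell from conception. The values are FPKM, fragments scaled by transcript length and by the number of mapped fragments, so that levels of different genes can be set side by side. The study left HuD KO replicate 2 out of its analysis after a principal component analysis, so comparisons below use 3 controls and HuD KO replicates 1 and 3, and values with all 6 libraries are added where they differ most.

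Kinesins are motor proteins that walk along microtubules and use ATP to carry vesicles, mitochondria, RNA granules and receptors. Neurons depend on them for transport from the cell body into axons and dendrites. Kinesin-1 is built from a pair of heavy chains (KIF5A, KIF5B or KIF5C) and a pair of light chains that bind cargo, kinesin-2 from KIF3A with KIF3B or KIF3C and the accessory subunit KAP3, and kinesin-3 carries synaptic vesicle precursors and other organelles. Motors with the motor domain at the N-terminus mostly walk towards microtubule plus ends, those with a C-terminal motor domain (kinesin-14, the Kifc genes) towards minus ends, and kinesin-13, with a central motor domain, takes microtubules apart.

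The feature that motors share, and that the choice by name did not use, is the P-loop, the stretch of the motor domain that holds the phosphates of ATP. Its 8 codons were searched in frame, on the coding strand, in the longest GENCODE M21 coding sequence (GRCm38, the same assembly as mm10) of each gene. The pattern was codons for glycine, glutamine and threonine, any 2 codons, then glycine, lysine, and threonine or serine. It was found in 23 of 13176 genes searched (0.175%), and 22 of these were among the 30 members. The following stretches are shown because they cover an N-terminal, a central and a C-terminal motor domain, with the P-loop codons in capitals and 1 codon on either side, 5′ to 3′:
Kif5c: tatGGGCAGACTTCATCAGGAAAAACTcat
Kif21a: tatGGACAAACCGGAGCTGGGAAAACCtac
Kif2a: tatGGGCAGACTGGAAGTGGGAAAACTcat
Kifc2: tatGGTCAGACTGGGACAGGGAAAACCtac
Kifc3: tacGGCCAGACAGGTGCCGGCAAGACAtat

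On mm10 the *Kif5c* stretch, from a kinesin-1 heavy chain, lies at chr2:49680200-49680229 on the plus strand, in exon 3 of 26 of the transcript used. The *Kifc2* stretch lies at chr15:76666095-76666124 on the plus strand, in exon 13 of 18, and the *Kif2a* stretch at chr13:106979477-106979506 on the minus strand, in exon 10 of 21.

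The place of the P-loop followed the class of motor. Its first capital base was base 256 of the coding sequence in *Kif5c*, counted from 1 at the start codon, and bases 250 to 355 in all other members with the pattern except 4. In *Kif2a* it was base 934, in *Kifc5b* 1225, in *Kifc2* 1456 and in *Kifc3* 1576, so that the central and C-terminal motors stood apart. The light chain genes, *Kifap3* and *Kif1bp*, which encode no motor domain, had no match. Nor had *Kif19a*, *Kif26a* and *Kif26b*, which says only that these letters were not in the coding sequences used.

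**Figure D1:**
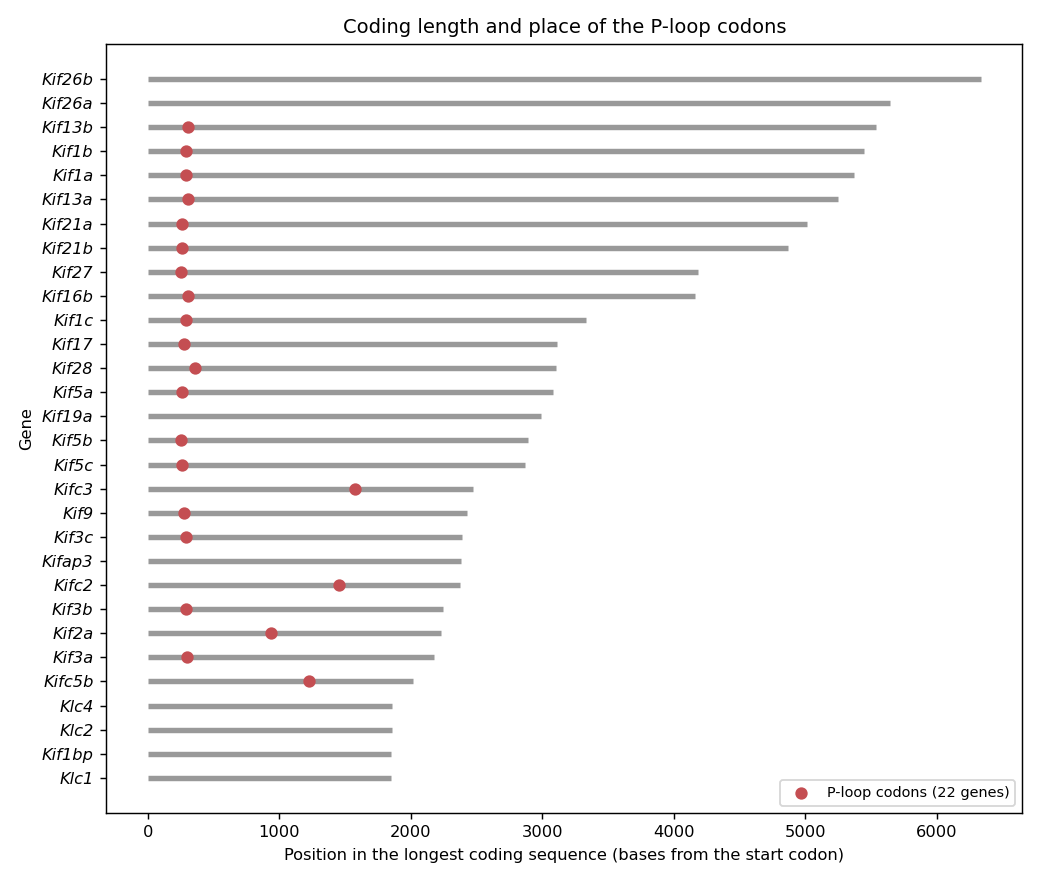
Coding length of the 30 kinesin genes in bases (grey lines, longest GENCODE M21 coding sequence) with the first base of the P-loop codons (red points). In 18 of the 22 genes that carry the codons the point lies between bases 250 and 355, and *Kif2a*, *Kifc5b*, *Kifc2* and *Kifc3* have it at 934, 1225, 1456 and 1576.

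The libraries were checked before the members were compared. *Elavl4*, the targeted gene, was listed at 34.2, 30.4 and 28.3 FPKM in control cortices 1, 2 and 3, at 1.70 and 1.52 FPKM in HuD KOs 1 and 3, and at 1.07 FPKM in HuD KO 2, as the labels say. Neuronal markers were high in every library (694.6 to 884.3 FPKM summed over 5 genes), and so were excitatory markers (138.6 to 292.7 FPKM over 4 genes). Markers of neighbouring regions differed between libraries: 4 hypothalamic markers summed to 257.4 FPKM in control 3 and 0.533 to 1.95 in the others, 3 choroid plexus markers to 294.5 in control 3, 159.9 in HuD KO 1, 87.9 in HuD KO 3 and 2.31 to 5.56 elsewhere, and 3 striatal markers to 56.7 to 79.4 in control 3 and HuD KOs 1 and 2 against 23.0 to 26.1 in the rest. By their sums, the lists of meningeal fibroblasts and of excitatory neurons separated the genotypes. The 4 fibroblast genes summed to 11.8 to 13.7 FPKM in controls and 8.01 to 9.24 FPKM in HuD KOs. All 4 were lower with an unadjusted limma p under 0.05 over 5 libraries (2 of 4 over 6), and none was called. The 4 excitatory markers summed to 138.6 to 220.0 FPKM in controls and 221.2 to 292.7 FPKM in HuD KOs. Over 5 libraries 3 were higher and 1 lower, and 1, *Neurod6*, had an unadjusted limma p under 0.05. Over 6 libraries all 4 were higher and 0 had such a p, and none was called in either fit. The part of these lists in the kinesin values was not tested. Depth is unknown, as only FPKM values are given, and in RNA of whole tissue fewer cells of a type and less RNA per cell cannot be told apart.

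Kinesin mRNAs ranged widely in these cortices, from a mean over the 6 libraries of 391.5 FPKM (*Kif5a*) to 0.407 FPKM (*Kif28*). The 30 genes together held 0.561% to 0.618% of the summed FPKM in the 5 libraries and 0.744% in HuD KO 2. None was at 0 in any library. A mean of at least 10 FPKM was reached by 16 members, 9 lay between 1 and 10 FPKM and 5 were under 1 FPKM. The 5 with at least 100 FPKM, namely *Kif5a*, *Kif5c*, *Klc1*, *Kifc2* and *Kif1a*, held 68.0% of the summed kinesin FPKM.

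In the order of levels, not every gene could be told from its neighbour. Of the 29 pairs of neighbours, 12 had ranges over the 5 libraries that did not touch. *Kif5a* stood above *Kif5c*, *Kifc2* above *Kif1a*, *Kif1a* above *Kifap3* and *Kifap3* above *Kif5b*. *Kif5c*, *Klc1* and *Kifc2* overlapped, as did *Kif5b* with *Kif21a*, and *Kif1b* with *Klc2* and *Kif3a*. Most members varied little between the 5 libraries: the coefficient of variation had a median of 7.41% over members and of 11.5% over all genes, with the lowest value in *Kif1c* (3.16%) and the highest in *Kif26b* (44.7%).

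**Figure D2:**
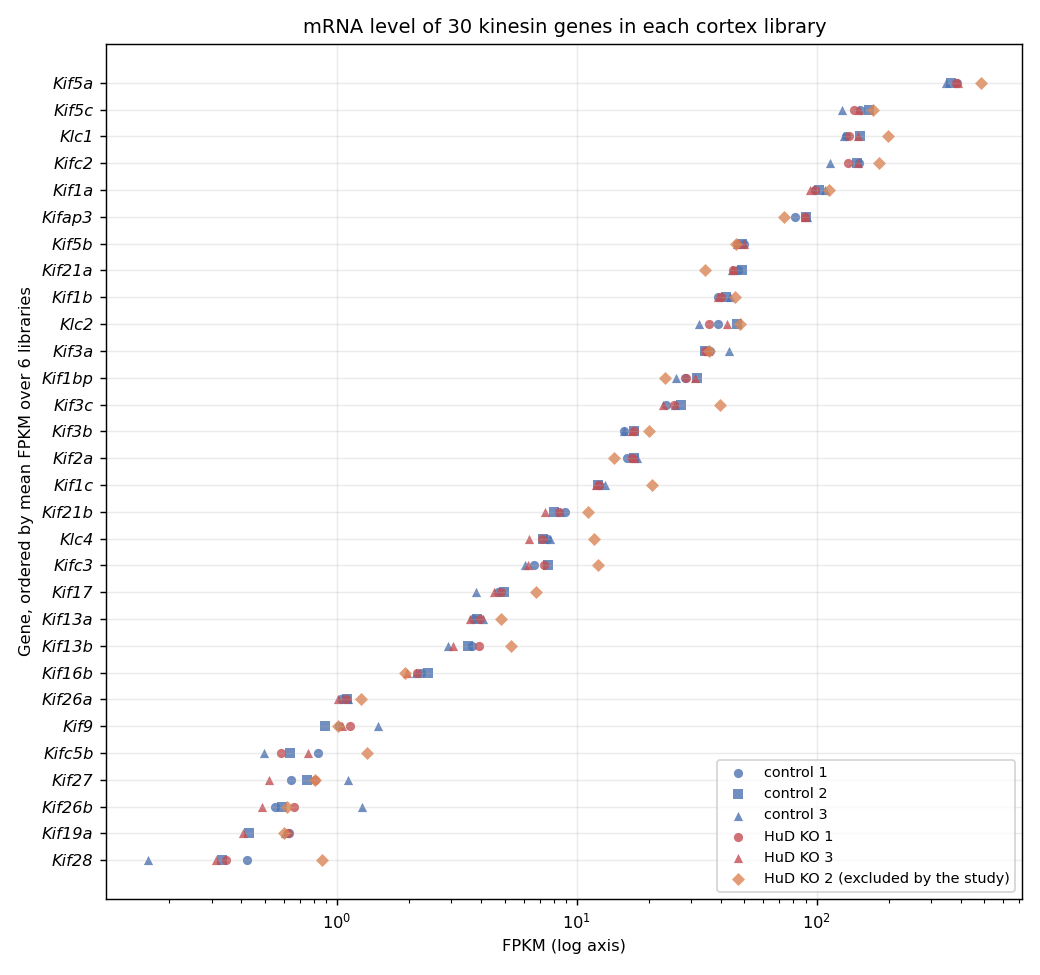
FPKM (log axis) of the 30 kinesin genes in each of the 6 libraries, ordered by their mean, with colour for genotype and symbol for library. *Kif5a* leads at 346.1 to 483.9 FPKM, and *Kif28* comes last at 0.163 to 0.868 FPKM.

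No kinesin gene passed the test between HuD KOs and controls. Of the 29 members tested (*Kif28* was below the level filter), none had an adjusted p under 0.05 in limma's test, against 0.0457% of the 13121 genes tested, and none had an unadjusted p under 0.05, against 3.43% of all genes. Among the members, 12 lay above and 17 below the controls (44.5% of all genes lay above), with log2 differences from -0.18 to 0.08 and a median of -0.02, the same as the median of all genes (-0.02). The 95% intervals set a limit, on the scale of log2(FPKM + 1), on what could have been missed. They lay within 0.5 for 27 members, all but *Kif26b* and *Kif27*, and within 1 for all 29. Of all genes, which were not matched to the members in level, 70.7% had intervals within 0.5. That scale understates changes of genes near or under 1 FPKM, so for such members the intervals do not limit the fold change as closely. With a pseudocount of 0.1 in place of 1, the difference of *Kif26b* was -0.35 instead of -0.18. The mean FPKM of the genotypes differed by less than 1.2-fold for 28 of the 30.

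With HuD KO 2 included, again no member was called (0.0305% of 13114 genes) and none had an unadjusted p under 0.05 (3.48%). Among the members, 16 were then higher and 13 lower (47.6% of all genes were higher), the median was 0.06 against -0.01 for all genes, and the differences ran from -0.18 to 0.27. Only 18 intervals stayed within 0.5. In the remaining paragraphs, differences are HuD KO minus control on the log2(FPKM + 1) scale with the limma standard error, and adjusted p-values of limma, Benjamini-Hochberg over all genes, were 0.995 to 0.999 over 5 libraries and 0.871 to 0.996 over 6 for every kinesin gene.

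**Figure D3:**
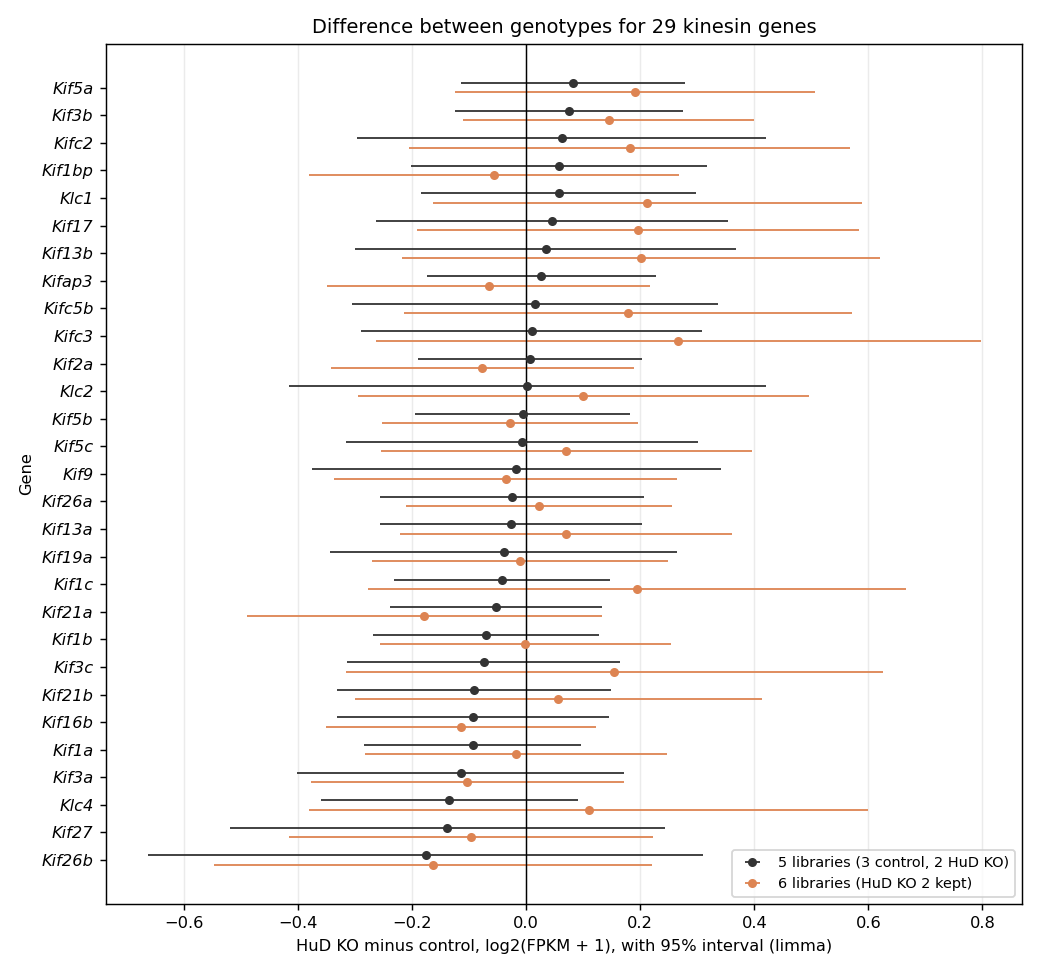
HuD KO minus control in log2(FPKM + 1) for the 29 kinesin genes tested, with 95% intervals from limma, over 5 and over 6 libraries. Every interval includes 0, and over 5 libraries only those of *Kif26b* and *Kif27* reach beyond 0.5 in either direction.

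As a class, the kinesin-1 heavy chains had the highest summed FPKM of the motors, most of it from *Kif5a*. *Kif5a*, the neuronal heavy chain (chr10:127225696-127263348), had 384.6, 363.2 and 346.1 FPKM in control cortices 1, 2 and 3 and 382.8 and 388.5 FPKM in HuD KOs 1 and 3, with 483.9 in HuD KO 2. It ranked at place 28 of all genes in the table. HuD KO 3 and control 1 were the highest of the 5 libraries and the groups overlapped, with a difference of 0.08 ± 0.08 (SE, 95% interval -0.11 to 0.28, n = 3 and 2, exact permutation p = 0.4). With HuD KO 2, which was above all others, the difference was 0.19 ± 0.13.

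*Kif5c*, a second neuron-enriched heavy chain (chr2:49619298-49774778) that the study lists among HuD targets, had 151.5, 165.8 and 127.4 FPKM in control cortices and 143.4 and 149.8 FPKM in HuD KOs 1 and 3. Both HuD KOs lay inside the control range, and the difference was -0.0077 ± 0.12 (95% interval -0.32 to 0.30). *Kif5b*, the heavy chain found in nearly all cell types (chromosome 18), was among the least variable members, with 50.0, 48.7 and 46.4 FPKM in control cortices, 46.5 and 49.8 FPKM in HuD KOs 1 and 3, and 46.0 in HuD KO 2. Its difference was -0.0065 ± 0.08 (95% interval -0.19 to 0.18).

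The share of each heavy chain in the pool overlapped between the genotypes. *Kif5a* gave 65.6%, 62.9% and 66.6% of the summed heavy chain FPKM in control cortices and 66.8% and 66.1% in HuD KOs 1 and 3. *Kif5c* gave 24.5% to 28.7% and *Kif5b* 8.12% to 8.93% over the same 5 libraries. HuD KO 2 had the highest summed level, 702.4 FPKM against 519.9 to 588.0, with the largest share of *Kif5a* (68.9%) and the smallest share of *Kif5b* (6.54%).

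**Figure D4:**
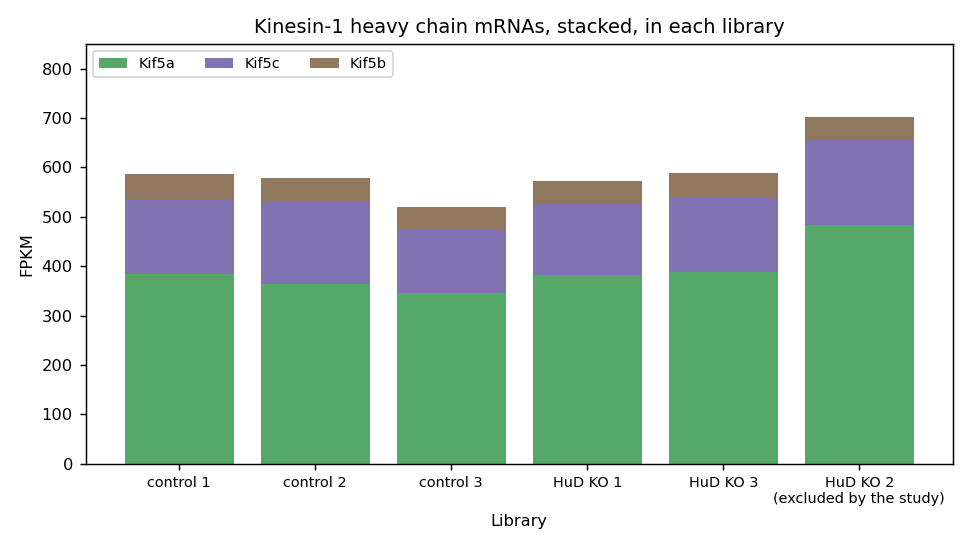
Stacked FPKM of the kinesin-1 heavy chain genes in each library. The 5 libraries kept by the study sum to 519.9 to 588.0 FPKM and HuD KO 2 to 702.4, with *Kif5a* the largest part in each (62.9% to 68.9%).

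Kinesin light chains bind cargo and its adaptors and hold the motor inactive until cargo binds. *Klc1*, the main light chain of neurons (chr12:111758849-111807844), had 132.8, 151.2 and 129.7 FPKM in control cortices and 137.2 and 149.4 FPKM in HuD KOs 1 and 3, all between the lowest and highest control, and 198.2 FPKM in HuD KO 2. The difference was 0.06 ± 0.10 (95% interval -0.18 to 0.30) over 5 libraries and 0.21 ± 0.16 over 6. *Klc2*, a second brain light chain (chr19:5107746-5118560), was the most variable member above 10 FPKM (coefficient of variation 14.3%): controls had 38.7, 46.7 and 32.4 FPKM and HuD KOs 1 and 3 had 35.7 and 42.3 FPKM. Its difference was 0.0017 ± 0.17, with an interval of -0.42 to 0.42 wide enough to leave moderate changes in either direction undetected.

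*Klc4*, the least abundant of the listed light chains (chr17:46630631-46645144), was the only member whose groups did not overlap over the 5 libraries. Controls had 7.48, 7.22 and 7.73 FPKM and HuD KOs 1 and 3 had 7.15 and 6.31 FPKM. Groups without overlap made up 19.3% of all genes in the table (11.1% with HuD KOs below and 8.24% with them above), so 1 of 30 members is fewer than that share. The difference of -0.13 ± 0.09 (95% interval -0.36 to 0.09) had a limma p of 0.192 and an exact permutation p of 0.2, the smallest that 3 against 2 libraries allow. HuD KO 2, at 11.8 FPKM, was above every control, and over 6 libraries the difference was 0.11 ± 0.21 and no member had separate groups (10.3% of all genes). Light chain mRNA per heavy chain mRNA, as a ratio of summed FPKM, was 0.305, 0.355 and 0.327 in controls, 0.314 and 0.337 in HuD KOs 1 and 3, and 0.367 in HuD KO 2.

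Kinesin-2 carries N-cadherin vesicles and the intraflagellar transport particles of cilia, and its KIF17 homodimer carries NMDA receptor vesicles in dendrites. *Kif3a*, the subunit common to both trimers (chr11:53567379-53601967), had 36.0, 34.1 and 43.1 FPKM in control cortices and 34.1 and 35.1 FPKM in HuD KOs 1 and 3. Control 3 was the one high library, and the difference was -0.12 ± 0.12 (95% interval -0.40 to 0.17). *Kif3b*, a partner of KIF3A (chr2:153291413-153333390), had 15.7, 17.3 and 15.7 FPKM in control cortices, 17.3 and 16.9 FPKM in HuD KOs 1 and 3 and 19.96 FPKM in HuD KO 2. HuD KO 1 was the highest of the 5 libraries by a margin below 0.1 FPKM over control 2, and the difference was 0.07 ± 0.08 (95% interval -0.13 to 0.28).

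*Kif3c*, the alternative partner, which is enriched in neurons, lay at 22.8 to 27.3 FPKM in the 5 libraries and 39.4 in HuD KO 2. *Kifap3*, which encodes the accessory subunit KAP3 (chr1:163779583-163917109), was the most abundant kinesin-2 mRNA at 81.5, 90.2 and 91.4 FPKM in control cortices and 89.2 and 89.3 FPKM in HuD KOs 1 and 3. Its level per summed *Kif3b* and *Kif3c* was 2.03 to 2.25 in the 5 libraries and 1.24 in HuD KO 2, where *Kifap3* was the lowest (73.4 FPKM) and *Kif3c* the highest. *Kif17* lay at 3.81 to 4.99 FPKM in the 5 libraries and 6.73 in HuD KO 2. Of the 5 kinesin-2 genes, 3 lay above and 2 below the controls, with a median of 0.03 over 5 libraries and 0.14 over 6.

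Among the kinesin-3 genes 1 was above the controls and 5 below, with a median of -0.06, and *Kif28* was not tested. Over 6 libraries 3 were above and 3 below, with a median of 0.03. *Kif1a*, the motor of synaptic vesicle precursors and dense core vesicles (chr1:93015464-93101951), had 98.8, 102.2 and 108.3 FPKM in control cortices and 98.9 and 94.0 FPKM in HuD KOs 1 and 3. HuD KO 1 lay just above control 1, the lowest control, and HuD KO 3 below it, and the difference was -0.09 ± 0.08 (95% interval -0.28 to 0.10, exact permutation p = 0.4). HuD KO 2 had 113.2 FPKM, above all 5 others, and over 6 libraries the difference was -0.02 ± 0.11.

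*Kif1b*, whose isoforms carry mitochondria or synaptic vesicle precursors (chr4:149176319-149307693), is another of the HuD targets that the study lists. It had 39.0, 42.0 and 43.7 FPKM in control cortices, 40.0 and 38.9 FPKM in HuD KOs 1 and 3, and 45.7 FPKM in HuD KO 2. The groups overlapped, and the difference was -0.07 ± 0.08 (95% interval -0.27 to 0.13) over 5 libraries and -0.0017 ± 0.11 over 6. *Kif1c*, a more widely expressed relative, had the smallest coefficient of variation of all members in the 5 libraries, at 12.003 to 13.1 FPKM, but 20.6 FPKM in HuD KO 2. *Kif1a* made up 64.9% to 65.8% of the summed *Kif1a*, *Kif1b* and *Kif1c* FPKM in the 5 libraries.

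The remaining kinesin-3 genes were low. *Kif13a* (3.60 to 4.05 FPKM), which sorts endosomes, and *Kif13b* (2.90 to 3.89 FPKM) overlapped between the genotypes. *Kif16b*, a motor of early endosomes (chr2:142617474-142901531), had 2.25, 2.40 and 2.14 FPKM in control cortices and 2.16 and 1.96 FPKM in HuD KOs 1 and 3, a difference of -0.09 ± 0.10 (95% interval -0.33 to 0.15). *Kif28*, at 0.163 to 0.422 FPKM in the 5 libraries, was the lowest of the family.

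The kinesin-4 genes were all 3 lower in HuD KOs, by amounts within their errors (median -0.09), whereas over 6 libraries 1 was higher and 2 were lower (median -0.10). *Kif21a*, which slows microtubule growth in axons (chr15:90933276-91049948), is a gene the study names for exon skipping in HuD KOs, a change that a gene-level FPKM does not measure. It had 46.9, 48.6 and 44.2 FPKM in control cortices and 44.9 and 44.8 FPKM in HuD KOs 1 and 3, both inside the control range. The difference was -0.05 ± 0.07 (95% interval -0.24 to 0.13) over 5 libraries and -0.18 ± 0.13 over 6, since HuD KO 2 had 34.3 FPKM, below all others.

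*Kif21b*, its dendritic relative (chr1:136131389-136177998), had 8.90, 8.03 and 8.55 FPKM in control cortices and 8.47 and 7.36 FPKM in HuD KOs 1 and 3. HuD KO 3 was the lowest library, HuD KO 1 lay inside the control range, and the difference was -0.09 ± 0.10 (95% interval -0.33 to 0.15). HuD KO 2 had 11.1 FPKM, so that the level of *Kif21a* per *Kif21b* was 3.09 there and 5.18 to 6.08 in the 5 libraries. *Kif27*, a relative of Costal-2 of *Drosophila* that takes part in motile cilia, lay at 0.521 to 1.12 FPKM, with control 3 the highest.

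*Kif2a*, the kinesin-13 that trims axon branches by taking microtubules apart (chr13:106958996-107022126), is the last of the listed HuD targets in the family. It had 16.2, 17.3 and 17.9 FPKM in control cortices and 16.98 and 17.4 FPKM in HuD KOs 1 and 3, both inside the control range. The difference was 0.0061 ± 0.08 (95% interval -0.19 to 0.20). With HuD KO 2, at 14.3 FPKM below all others, it was -0.08 ± 0.11.

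The kinesin-14 genes include *Kifc2* (chr15:76660641-76668196), a C-terminal motor enriched in brain, at a level that overlapped those of *Kif5c* and *Klc1*. It had 150.7, 147.6 and 113.4 FPKM in control cortices and 135.7 and 148.9 FPKM in HuD KOs 1 and 3, with control 3 the lowest. The difference was 0.06 ± 0.14. With HuD KO 2, at 182.4 FPKM above all others, it was 0.18 ± 0.16. *Kifc3*, a minus-end motor, lay at 6.06 to 7.56 FPKM in the 5 libraries and 12.3 in HuD KO 2. Its difference was 0.0093 ± 0.12 over 5 libraries and 0.27 ± 0.23 over 6, the highest of the members there. *Kifc5b* lay at 0.494 to 0.838 FPKM, and as a close copy of *Kifc1* it may share reads with that gene, so its level is uncertain.

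The rarest members showed the widest relative spread. *Kif26b*, a kinesin-11 gene without known motor activity (chr1:178529125-178939200), had 0.553, 0.592 and 1.27 FPKM in control cortices and 0.664 and 0.486 FPKM in HuD KOs 1 and 3. The control mean was set by control 3, and the difference was -0.18 ± 0.20 (95% interval -0.66 to 0.31). Its relative *Kif26a* lay at 1.01 to 1.11 FPKM. *Kif9*, a motor of the motile cilium, lay at 0.893 to 1.48 FPKM with control 3 the highest, and *Kif19a*, which shortens ciliary microtubules, at 0.405 to 0.632 FPKM. *Kif1bp*, the binding protein that keeps several kinesins off microtubules, had 28.3, 31.6 and 26.04 FPKM in control cortices and 28.6 and 31.0 FPKM in HuD KOs 1 and 3, a difference of 0.06 ± 0.10.

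Of the 6 libraries, HuD KO 2 stood farthest from the rest, with a median absolute deviation over all genes of 0.248 against 0.0934 to 0.170. It was above all 5 other libraries for 19 of the 30 members and below them for 6, against 32.8% and 31.0% of all genes, and 40.1% and 31.5% of genes at 10 FPKM or more. *Kif28*, one of the 19, entered the table only through HuD KO 2, so its place there was set by the entry rule. Its HuD KO mean was 0.508 FPKM with that library and 0.328 FPKM without it. On log2(FPKM + 1), the deviation of HuD KO 2 from the mean of the 5 others had a median of 0.24 over members and of 0.0013 over all genes. The highest deviations were those of *Kifc3* (0.78), *Kif1c* (0.69), *Klc4* (0.65) and *Kif3c* (0.64). The 6 members below all others were *Kif21a* (-0.41), *Kif1bp* (-0.31), *Kifap3* (-0.26), *Kif2a* (-0.25), *Kif16b* (-0.12) and *Kif5b* (-0.07). Across the 30 members the deviation had a Spearman rho of -0.27 with gene length, -0.10 with exon number and -0.09 with coding length, given as descriptions over genes of the same libraries. Marker lists in HuD KO 2 moved both ways within a list: of 5 oligodendrocyte markers 3 were above and *Mbp* below all other libraries (sum 402.1 FPKM against 309.6 to 390.7), of 5 astrocyte markers 1 was above and 3 below (113.5 against 128.0 to 168.3), and of 4 microglial markers 3 were above and 1 below (62.4 against 44.9 to 58.3). Of 4 excitatory markers only *Slc17a7* was above all others (list sum 292.7 against 138.6 to 230.4), and of 3 inhibitory markers 2 were below (93.4 against 98.7 to 141.9). Of 5 neuronal markers 1, *Rbfox3*, was above and 2, *Syt1* and *Stmn2*, were below all others (750.7 against 694.6 to 884.3). Their part in its kinesin values was not tested.

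Control 3 was the other library apart, and in several members it set the control spread. It was the highest of all 6 libraries for 6 members (*Kifap3*, *Kif3a*, *Kif2a*, *Kif9*, *Kif27* and *Kif26b*) and the lowest for 10, among them *Kif5a*, *Kif5c*, *Klc1*, *Klc2* and *Kifc2*, against 28.7% and 18.8% of all genes. It alone held high hypothalamic markers (257.4 FPKM), and choroid plexus markers were highest in it (294.5 FPKM) but also present in HuD KOs 1 and 3. All 4 excitatory markers were lowest in control 3 (138.6 FPKM against 177.6 or more). The 5 neuronal markers went both ways there, with *Snap25* (271.4 FPKM) and *Rbfox3* (38.9 FPKM) the lowest and *Stmn2* (67.5 FPKM) and *Tubb3* (139.6 FPKM) the highest of the 6 libraries. The 6 motile cilia genes had their highest sum in it (16.7 FPKM against 4.40 to 8.84). The part of these in the values of control 3 was not tested. Without control 3, again no kinesin gene was called.

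**Figure D5:**
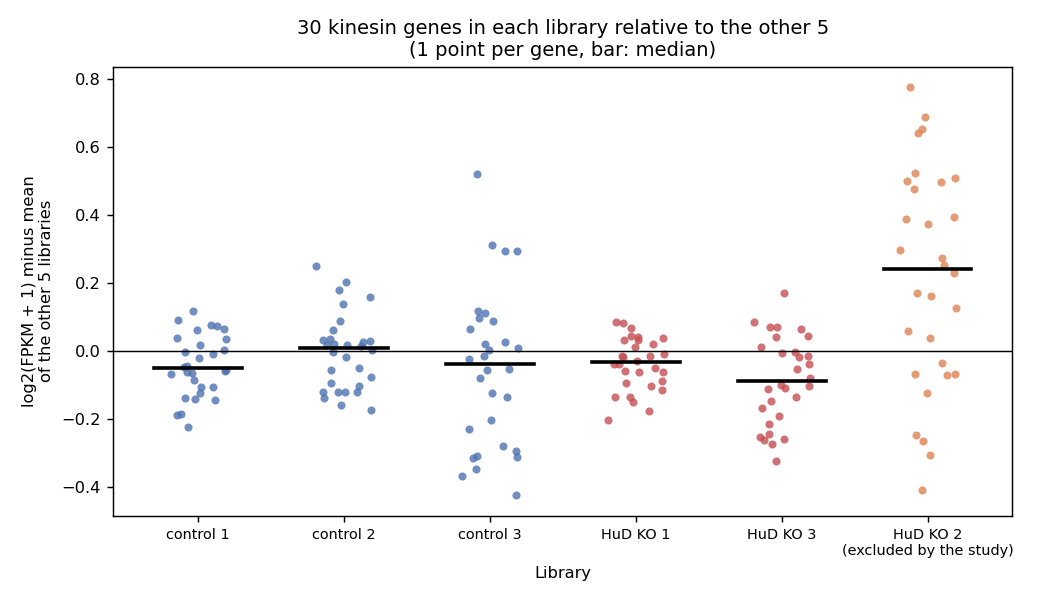
Deviation of each kinesin gene in each library from the mean of the other 5 libraries, in log2(FPKM + 1); each point is 1 gene and the bar is the median of the 30. The medians lie between -0.09 and 0.01 in 5 libraries and at 0.24 in HuD KO 2.

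The genes that work with kinesins on microtubules were taken as lists and read from the same fit. In it 44.5% of all genes were higher in HuD KOs over 5 libraries and 47.6% over 6. Of 31 kinesin cargo adaptors and activators tested, 20 were higher and 11 lower in HuD KOs with a median of 0.01, and none was called or had an unadjusted p under 0.05. The smallest p was that of *Rhot1*, the mitochondrial GTPase that links kinesin-1 to mitochondria (0.16 ± 0.08), followed by *Rhot2* (0.16 ± 0.10) and *Ppfia1* (-0.15 ± 0.09). *Rhot1* had 11.2, 11.8 and 10.98 FPKM in control cortices, 13.1 and 12.4 FPKM in HuD KOs 1 and 3 and 9.20 FPKM in HuD KO 2. The groups were separate only without HuD KO 2, and 8.24% of all genes had HuD KOs 1 and 3 above all controls. Over 6 libraries its difference was 0.012, that of *Rhot2* 0.17 and that of *Ppfia1* -0.07, and the list had 20 higher and 11 lower with a median of 0.06.

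Of 32 genes of cytoplasmic dynein and dynactin, the minus-end transport machinery, 9 were higher and 23 lower with a median of -0.03. None was called. *Dynlt1b*, a dynein light chain, had the one unadjusted p under 0.05 (1.81% of all genes had one with HuD KOs lower): controls had 5.81, 5.43 and 6.33 FPKM, HuD KOs 1 and 3 had 3.72 and 5.09 FPKM, and HuD KO 2 had 3.71 FPKM. All HuD KOs were below all controls, as in 5.81% of all genes, with a difference of -0.35 ± 0.14 (limma adjusted p = 0.995). *Bicd1* (-0.22 ± 0.11) and *Dync1li2* (-0.12 ± 0.07) came next. Over 6 libraries 11 were higher and 21 lower with a median of -0.08, none was called, and *Dynlt1b* (-0.42) and *Bicd1* (-0.32) had an unadjusted p under 0.05.

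Of 29 tubulins and microtubule-associated proteins, 13 were higher and 16 lower with a median of -0.02, and none was called. *Tuba4a*, an alpha-tubulin of mature tissue, had 46.4, 47.6 and 39.1 FPKM in control cortices, 70.4 and 53.7 FPKM in HuD KOs 1 and 3 and 115.0 FPKM in HuD KO 2. No HuD KO overlapped the controls (4.47% of all genes had all 3 above), and the difference was 0.47 ± 0.15 (limma adjusted p = 0.995). *Camsap2*, which stabilises microtubule minus ends, had 13.02, 14.6 and 15.1 FPKM in control cortices, 16.4 and 19.8 FPKM in HuD KOs 1 and 3 and 16.7 FPKM in HuD KO 2, again without overlap (0.32 ± 0.11, limma adjusted p = 0.995). These were the 2 genes of the list with an unadjusted p under 0.05, a level that 1.62% of all genes reached with HuD KOs higher, and *Tubb3* came next (-0.15 ± 0.08). Over 6 libraries the differences were 0.76 for *Tuba4a*, 0.29 for *Camsap2* and -0.12 for *Tubb3*, with 12 of the list higher, 17 lower, a median of -0.03 and none called. Of 14 mitotic genes none was in the table, and of 18 motile cilia genes 5 were tested (2 higher, 3 lower, median -0.13) and none had an unadjusted p under 0.05.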

How the data were processed

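RNA-seq of neocortex from 3 control and 3 HuD KO mice was analysed from the FPKM values, which the authors deposited in 1 table with 6 libraries and 1 without HuD KO replicate 2, identical for the shared libraries. Per the submitters' processing notes, FastQC 0.11.5, cutadapt, Trimmomatic and STAR 2.7.3a were used, with build mm10. Neither the program that turned alignments into FPKM nor its strand setting is stated in these notes or in the study's methods. The tables also hold the authors' own comparison (log2 fold changes, fold changes, p and q values), which was not used, and 1 line of sums that names no gene, which was left out. Sums of FPKM were 216651 to 227439 per library and are not depths, so no counting error can be given.

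The fit used log2(FPKM + 1), a scale that understates changes of low genes, for all genes whose mean reached 0.5 FPKM. HuD KO was compared with control by the lmFit and trended eBayes functions of limma 3.58.1 (R 4.3.3), over 5 libraries (13121 genes) and 6 (13114 genes). P-values were adjusted by Benjamini-Hochberg over all genes tested and called at 0.05. Exact permutation tests, two-sided, were run in Python 3.11.15 (SciPy 1.17.1, pandas 2.3.3, NumPy 2.4.6). Figures were made with matplotlib 3.10.9. The code was tested on simulated data. Full statistics were given for the heavy chains, *Klc1*, *Klc2*, *Kif1b*, *Kif2a*, *Kif21a* and the 8 members with the smallest unadjusted p, and of each pathway list for up to 3 genes with the smallest p. The other values named were chosen after they were seen. The members and lists were chosen with earlier results of these data known. Coding sequences were read from GENCODE M21, which held 13266 of the 13299 genes by Ensembl ID, and 27 of the 30 members at the coordinates of the table. The P-loop stretches of other members are not reported here. Alternatives were another pseudocount (0.1), other filters (none, 2 FPKM), scaling each library to 1 median, no trend, all 6 libraries, a replicate block, and leaving out each library.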

Additional observations from a re-analysis of the deposited data

How the results depend on the processing

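In every alternative no kinesin gene was called and none had an unadjusted p under 0.05, while the count over all genes, 6, became 2 with a pseudocount of 0.1, 4 over 6 libraries, 3 over 6 libraries with the replicate block, 2 without control 1 or without HuD KO 1 and 11 without control 3. Same-numbered libraries deviated from their group means with correlations of -0.12, 0.18 and 0.042, and differently numbered ones with -0.21 to 0.24. With 3 libraries in each group these correlations cannot show whether the numbers pair the mice. The replicate block gave the same differences as all 6 libraries without it: a member median of 0.056, subfamily medians of 0.070 (heavy chains), 0.11 (light chains), 0.14 (kinesin-2), 0.034 (kinesin-3), -0.077 (kinesin-13) and 0.18 (kinesin-14), and the other sign for *Kif21b* (0.056), *Kif2a* (-0.077), *Kif5c* (0.070) and *Klc4* (0.11). The *Kif5b* share differed by -0.917 percentage points over 6 libraries. Median scaling gave a member median of 0.0043, a median HuD KO level over members of 14.8 FPKM, and the other sign for *Kif5b* (0.015) and *Kif5c* (0.014). Median scaling with 6 libraries, added after seeing the data, gave a member median of 0.071, medians of 0.085 (heavy chains), 0.12 (light chains), 0.16 (kinesin-2), 0.049 (kinesin-3) and 0.20 (kinesin-14), and *Kif1b* 0.013, *Kif21b* 0.071, *Kif2a* -0.062, *Kif5c* 0.085 and *Klc4* 0.12.

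With 1 library left out, the count over all genes ran from 2 to 11 and the member median from -0.055 to -0.0045. Subfamily medians ran from -0.039 to 0.077 (heavy chains), -0.11 to 0.12 (light chains) and -0.18 to -0.013 (kinesin-4). Single genes with a change of sign ran from -0.27 to 0.00036 (*Kif26b*), -0.031 to 0.037 (*Kif2a*), -0.055 to 0.042 (*Kif5b*), -0.11 to 0.077 (*Kif5c*), -0.0045 to 0.12 (*Klc1*) and -0.13 to 0.13 (*Klc2*). Leaving out a HuD KO leaves 1 in that arm, which is assumed to vary like the controls. The cause of these shifts was not tested. The median standard error over members was 0.097 with 5 libraries, and changes well above that size could also have been missed. *Kif21b*, which had this standard error, had a limma interval of -0.33 to 0.15. Outside the members, *Tuba4a* was not called at a difference of 0.47 ± 0.15 (limma adjusted p = 0.995).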

Other observations

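The 1 gene outside the members that carried the P-loop codons was *Stard9* (chr2:120629126-120731895), which encodes a kinesin-like protein with a lipid-binding domain, in a coding sequence of 13683 bases with the P-loop at base 307. It had 0.992, 0.600 and 1.19 FPKM in control cortices, 1.10 and 0.694 FPKM in HuD KOs 1 and 3 and 1.10 FPKM in HuD KO 2. The groups overlapped, with a difference of -0.02 ± 0.18 (SE, 95% interval -0.46 to 0.42, limma adjusted p = 0.996).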
